A study of Mus musculus with 9 samples.

Results

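Cerebral cortex of E13.5 mouse embryos heterozygous for an Sfpq knockout was compared with cortex of control embryos. The libraries were chosen by their titles: 3 heterozygous and 3 control libraries of the 9 in the series, each from total RNA depleted of ribosomal RNA. The other 3 libraries, from homozygous knockout embryos, are given beside them as values. All embryos were of the same age, on a mixed background given as C57BL/6+C57BL/6J+CBA. The series' design text also gives heterozygous and homozygous embryos, whereas the extraction protocol writes the heterozygous genotype for both mutant groups. The labels name the cells as neuronal stem cells and neurons. The sources used here do not give the design of the knockout allele, any Cre driver behind it or the genotype behind the word control.

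Sfpq encodes a nuclear RNA-binding protein that pairs with its relatives Nono and Pspc1, the DBHS proteins (Drosophila behaviour/human splicing). These proteins act in transcription and splicing and are core proteins of paraspeckles, nuclear bodies built on the long non-coding RNA Neat1. The series asks about long neuronal genes, and the heterozygous embryos show what remains of the pattern when 1 copy of the gene is kept.

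Levels are RPKM, the reads per kilobase of transcript, scaled to library size, as the authors deposited them for 30978 RefSeq transcripts. Of these, 17655 transcripts reached a 6-library mean of 0.5 RPKM and were tested, and they stand for 12084 genes when 1 transcript is kept per gene. Differences are given as log2(RPKM + 0.5), heterozygous minus control, with the standard error (SE). The added 0.5 RPKM understates changes of low genes. The depth read from the steps between low values was 172 to 206 M reads per library (M, 1e6), an approximate figure. By Xist and 4 Y-linked genes all 3 heterozygous embryos were male, whereas 1 control embryo was male (replicate 3) and 2 were female. Sex and genotype therefore overlap in part, and values against the male control library alone are given beside the leading results.

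Sfpq RNA was only slightly lower with 1 copy. It stood at 168, 187 and 201 RPKM in the control libraries, 168, 149 and 151 RPKM in the heterozygous libraries, and 23.8, 25.7 and 25.4 RPKM in the homozygous libraries. Heterozygous library 1 equalled the lowest control, so the groups touched, while the homozygous libraries lay far below both. The heterozygous mean was 84.2% of the control mean and the homozygous mean 13.48%. The log2 difference of heterozygous from control was -0.25 (SE 0.07, 95% interval -0.41 to -0.08), with a limma adjusted p of 0.645 and an exact two-sided permutation p of 0.2, where 0.1 is the smallest possible. Against the male control alone it was -0.37. The values run over the whole transcript, and the part that the allele removes is not stated, so they do not measure a deleted exon.

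Of its partners, Pspc1 was higher and Nono was level. Pspc1 was at 100, 101 and 103 RPKM in control, 142, 131 and 126 RPKM in heterozygous and 252, 259 and 274 RPKM in homozygous cortex. All 3 heterozygous libraries stood above all 3 controls and below all 3 homozygous libraries. The difference was 0.39 (SE 0.06, interval 0.26 to 0.51), a level at 131% of control, but the limma adjusted p over all transcripts was 0.128. Against the male control alone it was 0.36. Nono was at 340, 375 and 424 RPKM in control and 402, 346 and 379 RPKM in heterozygous cortex, a difference of -0.01 with an interval of -0.20 to 0.18.

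The wider list of DBHS and paraspeckle genes held 21 tested members, of which 2 lay above all controls, 1 below them and 18 overlapped. Over all 12084 genes, 11% did not overlap between the groups, 3.48% with the heterozygous libraries higher and 7.56% with them lower. Besides Pspc1 the higher member was Matr3, a nuclear matrix RNA-binding protein, at 288, 292 and 293 RPKM in control, 325, 318 and 327 RPKM in heterozygous and 428, 423 and 455 RPKM in homozygous cortex. Its difference was 0.15 (SE 0.05, limma adjusted p of 0.645). The lower member, Nudt21, a subunit of the cleavage factor that selects polyadenylation sites, differed by -0.10 (SE 0.04).

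**Figure D1:**
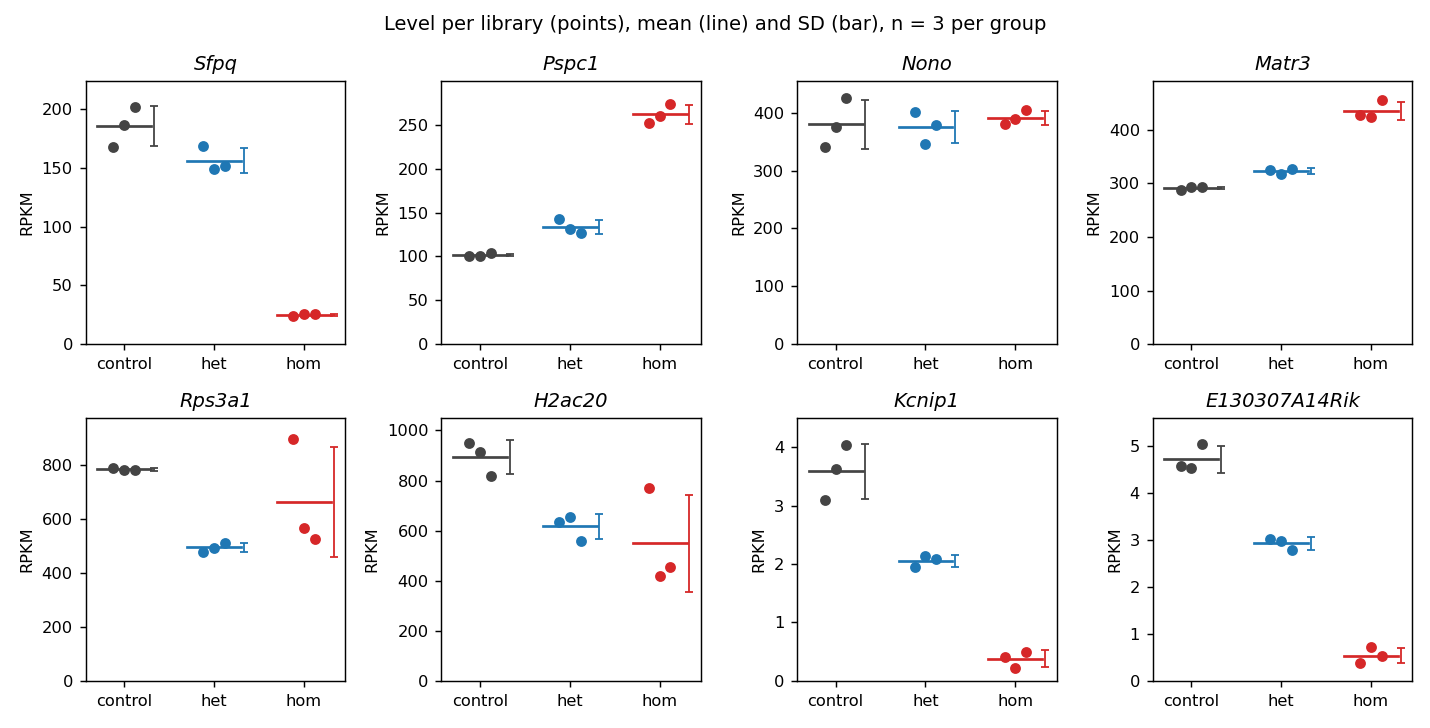
RPKM of 8 genes (y axes, from 0) in each control, heterozygous (het) and homozygous (hom) library; points are libraries, lines are group means and bars are SD, n = 3. Pspc1 and Matr3 stand above control in the heterozygous libraries, Kcnip1 and E130307A14Rik lie between control and homozygous levels, and homozygous library 1 stands apart for Rps3a1 and H2ac20.

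Across the transcriptome, heterozygous and control cortex were close. The 95% interval of the log2 difference lay wholly within -0.5 to 0.5 for 17092 of 17655 transcripts (96.8%) and for 11657 of 12084 genes (96.5%). This bounds their heterozygous RPKM + 0.5 between 70.7% and 141% of control. For genes of low level the RPKM itself can lie outside those limits. The number of transcripts bounded within 0.5 was 16278 (92.2%) with log2(RPKM + 0.1) and 15277 (86.5%) with a sex term. Of 2802 genes that averaged 20 RPKM or more, 2749 were bounded within 0.5 and 2158 within 0.25. The median absolute difference was 0.06, and 99% of transcripts differed by less than 0.35.

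Among the most tightly bounded genes were Anapc4, a subunit of the anaphase-promoting complex, Cct7, a subunit of the CCT chaperonin, and Rpl6, a protein of the large ribosomal subunit. Anapc4 was at 69.2, 68.2 and 68.3 RPKM in control and 68.4, 69.0 and 68.2 RPKM in heterozygous cortex. Cct7 was at 232, 231 and 236 RPKM in control and 234, 237 and 232 RPKM in heterozygous cortex. Rpl6 was at 151, 150 and 152 RPKM in control and 152, 149 and 147 RPKM in heterozygous cortex. For each of these 3 genes the groups overlapped, and the interval stayed within 0.12 of 0 on the log2 scale.

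By limma with Benjamini-Hochberg adjustment, 1 transcript of 17655 (0.00566%) passed an adjusted p of 0.05, and it fell. At an unadjusted p of 0.05, 1013 transcripts (5.74%) passed, 288 higher (1.63%) and 725 lower (4.11%). The 3 heterozygous libraries lay above all controls for 662 transcripts (3.75%) and below all controls for 1235 (7%), together 10.7%. With 3 libraries a group, ordering alone would separate a share of about 0.1. About 0.05 would likewise pass an unadjusted limma p of 0.05. The shares seen, 10.7% and 5.74%, were close to these. For comparison, 45.8% of genes did not overlap between homozygous and control libraries. The median absolute difference of the non-overlapping heterozygous transcripts was 0.14.

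These counts changed when 1 library was left out. Without control replicate 3, the male control, 11 transcripts passed limma's adjusted p of 0.05, 6 of them higher, and they included transcripts of Xist, Eif2s3x and the Y-linked Ddx3y, Eif2s3y, Kdm5d and Uty. Calls numbered 4 without control replicate 1, 6 without heterozygous replicate 1 and 0 without control replicate 2. With 1 library left out fewer values have to separate, so the share without overlap rose whichever library was dropped. It was 14.7% to 26% of transcripts, beside 10.7% with all 6 libraries. The number of transcripts above all controls was 2898 without control replicate 3, 1814 without heterozygous replicate 1 and 1051 without control replicate 1. The number below all controls was 2995 without control replicate 1, 2495 without heterozygous replicate 3 and 2087 without heterozygous replicate 1. Against the male control alone, the median difference of all transcripts was -0.07.

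**Figure D2:**
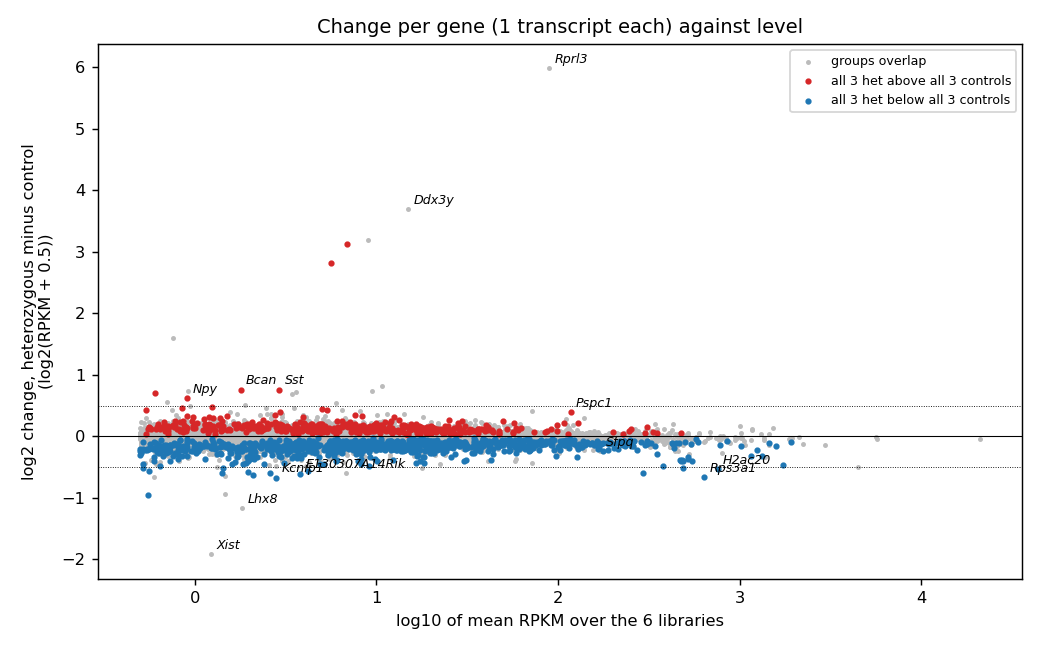
Log2 difference of each of the 12084 genes, heterozygous minus control (y axis), against log10 of its mean RPKM over the 6 libraries (x axis); red and blue points are genes whose groups do not overlap, grey points overlap, dotted lines mark -0.5 and 0.5. Most genes lie between the dotted lines, and the few beyond 1 include the Y-linked genes, Xist, Rprl3 and Lhx8.

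Only 9 transcripts, from 8 genes, differed by 1 or more on the log2 scale, and 6 of these transcripts came from chromosomes X and Y. The sex-linked ones were Xist and the Y-linked Ddx3y, Kdm5d, Eif2s3y and Uty, which follow the embryos' sex. Rprl3, annotated as a copy of the RNA component of ribonuclease P, was at 0.0319, 0.0143 and 0.0245 RPKM in control, 0, 254 and 285 RPKM in heterozygous and 0, 0 and 359 RPKM in homozygous libraries. It was thus high in some knockout libraries of each genotype and listed at 0 in others. Rprl2, on chromosome 3, differed by 1.60, and its groups overlapped. Lhx8, a transcription factor of ventral telencephalic neurons, was at 6.67, 1.09 and 0.922 RPKM in control and 0.0686, 0.748 and 1.497 RPKM in heterozygous libraries. Control library 1 stood far above the other libraries and heterozygous library 1 far below them. None of these 9 transcripts passed limma's adjusted p of 0.05 with all 6 libraries. Rprl2 and Rprl3 were called without heterozygous replicate 1.

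The transcript that fell was that of Rps3a1, a protein of the small ribosomal subunit, on chromosome 3. It was at 789, 781 and 780 RPKM in control, 479, 492 and 512 RPKM in heterozygous and 898, 567 and 528 RPKM in homozygous libraries. The heterozygous libraries were well below the controls, and homozygous library 1 lay above all controls while the other two lay below. Rps3a1 fell by 0.66 on the log2 scale (SE 0.05, limma adjusted p = 0.00289), to 63.1% of control, and against the male control alone the difference was also -0.66. Limma's adjusted p was 0.0573 without control replicate 2, 0.0583 against the male control alone, 0.0744 with a sex term, 0.115 with no filter on low values, 0.290 with the replicate block and 0.482 with all 9 libraries fitted, so the call was lost in each of these. Of the 36-base words in its transcript, 75.6% were also found in transcripts of 10 other genes, so its reads could be shared with copies, depending on how the authors counted reads that map to several places.

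The other ribosomal protein genes lay closer to control. Of 54 others tested, 12 lay below all controls (22.2%, beside 7.56% of all genes) and 2 above (3.7%, beside 3.48%). Their median was -0.03, and 53 of them were bounded within 0.5. The largest difference was that of Rpl32, at 1414, 1344 and 1286 RPKM in control and 1121, 1197 and 1155 RPKM in heterozygous cortex, -0.22 (SE 0.06, limma adjusted p of 0.589). With quantile normalization the counts were 3 below and 5 above, and the median turned to 0.01.

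Several of the largest differences lay on the same chromosome. A stretch of chromosome 3 from Tmem144 to H2ac20 was described, with ends chosen after the values were seen. Of its 166 tested genes, 26 lay below and 9 above all controls. Together these were 21.1%, beside 12.9% of tested genes on chromosome 3 and 11% of all genes. Of the 20 genes with the smallest p, 5 lie there. Tmem144 and H2ac20 are among these 5, so the count follows in part from how the ends were chosen. Tmem144, which encodes a transmembrane protein, was at 1.74, 1.87 and 1.82 RPKM in control, 0.915, 1.15 and 1.04 RPKM in heterozygous and 1.41, 0.984 and 0.857 RPKM in homozygous libraries, a heterozygous difference of -0.59 (SE 0.09).

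In the same stretch the non-coding 1500004A13Rik was at 2.74, 2.67 and 3.11 RPKM in control, 2.04, 1.92 and 1.90 RPKM in heterozygous and 2.99, 1.95 and 2.19 RPKM in homozygous libraries. Homozygous library 1 was at the control level and the other two were lower. Bcan, which encodes the extracellular matrix proteoglycan brevican, went the other way, at 0.967, 1.03 and 1.66 RPKM in control, 2.44, 2.46 and 2.19 RPKM in heterozygous and 0.707, 1.16 and 1.52 RPKM in homozygous libraries. Its difference of 0.76 (SE 0.14) had a limma adjusted p of 0.286, was 0.41 against the male control alone, and had an adjusted p of 0.00621 without control replicate 3. Around Sfpq itself, on chromosome 4, 5 of the 50 nearest tested genes, 25 on each side, lay below all controls and 0 above, 10% together. Over all tested genes of chromosome 4 the share was 11.6%.

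**Figure D3:**
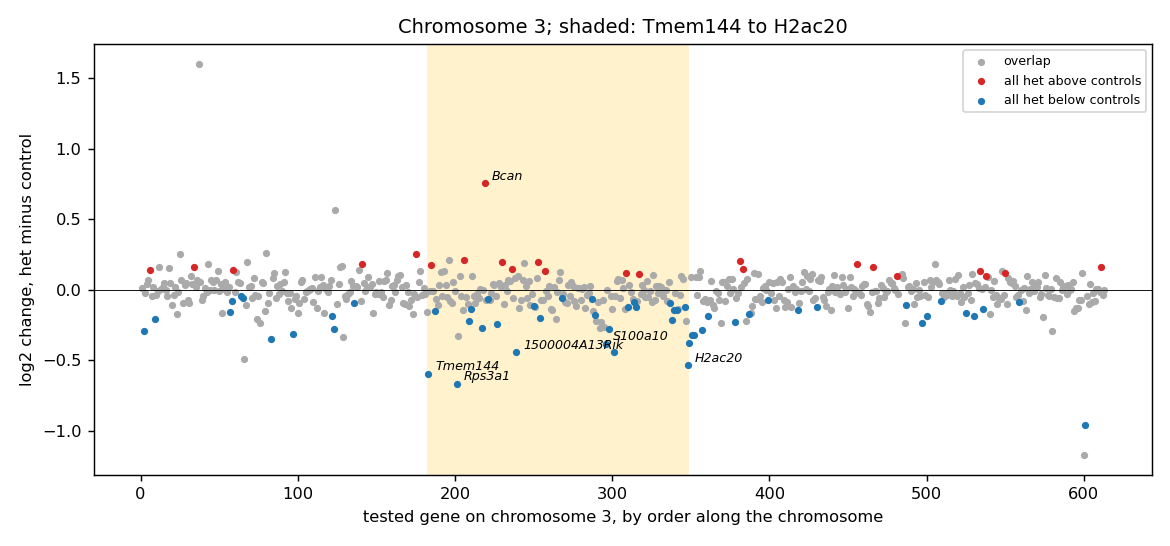
Log2 difference of each tested gene of chromosome 3, heterozygous minus control (y axis), by its order along the chromosome (x axis); red and blue points do not overlap between the groups, and the shaded stretch runs from Tmem144 to H2ac20. Tmem144, Rps3a1 and H2ac20 are the lowest points of the stretch and Bcan is the highest.

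Genes of the core histone H2A, the nucleosome subunit that pairs with H2B, lay below control as a class. The messages of these replication-dependent genes end without a polyadenylated tail, and ribosomal RNA depletion keeps them in the library. Of 16 H2A genes tested, 14 lay below all controls and 0 above, with a median of -0.38 and a range of -0.60 to -0.22. All 16 had an unadjusted limma p below 0.05, as 6.04% of all genes did, and 0 passed after adjustment. The H2A genes are near copies of each other, so they are not 16 separate measurements, as the first 120 bases of 4 of their coding sequences show. The sequences are from GENCODE M21 transcripts of GRCm38, and capitals mark bases that differ from H2ac15.
H2ac15: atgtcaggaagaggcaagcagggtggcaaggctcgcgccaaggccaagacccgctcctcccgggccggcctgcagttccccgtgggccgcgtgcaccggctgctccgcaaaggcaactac
H2ac13: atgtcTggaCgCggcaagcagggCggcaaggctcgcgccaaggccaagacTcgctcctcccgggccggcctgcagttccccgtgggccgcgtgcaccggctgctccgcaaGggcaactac
H2ac10: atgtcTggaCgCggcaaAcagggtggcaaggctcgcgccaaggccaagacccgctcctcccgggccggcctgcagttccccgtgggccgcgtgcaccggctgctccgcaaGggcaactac
H2ac20: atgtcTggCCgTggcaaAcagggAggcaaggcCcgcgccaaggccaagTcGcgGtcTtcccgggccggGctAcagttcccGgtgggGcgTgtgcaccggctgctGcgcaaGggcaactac

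H2ac13 and H2ac10, like H2ac15 on chromosome 13, differ from it at 6 and 5 of these bases, whereas H2ac20 on chromosome 3 differs at 18. Over the whole coding sequence the identity to H2ac15 was 97.5% for H2ac13, 96.4% for H2ac10 and 87.4% for H2ac20. Across the 16 genes a median of 81.9% of 36-base words (range 15.7% to 100%) also occurred in transcripts of other genes.

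H2ac10 was at 369, 378 and 321 RPKM in control, 230, 270 and 206 RPKM in heterozygous and 259, 144 and 168 RPKM in homozygous libraries, a heterozygous difference of -0.60 (SE 0.10). H2ac15 was at 601, 578 and 531 RPKM in control, 403, 446 and 353 RPKM in heterozygous and 426, 244 and 273 RPKM in homozygous libraries, -0.51 (SE 0.08). H2ac20, the member with the fewest shared words of the 4, at 49.1%, was at 948, 915 and 820 RPKM in control, 634, 656 and 561 RPKM in heterozygous and 772, 419 and 456 RPKM in homozygous libraries, -0.54 (SE 0.08). In all 3 genes the heterozygous libraries lay below every control, and homozygous library 1 was the highest of its group. Limma's adjusted p was 0.182 for H2ac10, 0.186 for H2ac15 and 0.128 for H2ac20.

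Fewer genes of the other histone classes separated from control. Of 16 H2B genes, 2 lay below all controls, with a median of -0.08. None of 12 H3 genes, 12 H4 genes and 5 H1 linker histone genes separated from control, with medians of 0.01, 0.03 and -0.14, and 0 of these 29 genes had an unadjusted limma p below 0.05. In homozygous cortex the medians were -0.78 for H2A, -0.58 for H2B, -0.43 for H3, -0.38 for H4 and -0.41 for H1. The H2A count was 8 of 16 with median scaling and 12 of 16 with quantile normalization, and the H2A median was -0.21 against the male control alone, beside -0.07 for all transcripts.

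Long genes as a class, which stood low in homozygous cortex, did not separate in heterozygous cortex. For each library the median difference from the control mean was taken over 1657 genes spanning at least 100 kb and over 10399 shorter genes, with spans from GENCODE M21 on GRCm38. Long minus short was 0.000069 ± 0.0433 in control, 0.0252 ± 0.0189 in heterozygous and -0.197 ± 0.0344 in homozygous libraries (mean ± SD, n = 3). The heterozygous and control values overlapped, with a difference of 0.0251 and an exact two-sided permutation p of 0.4. Among 124 genes of 500 kb and over, 6 lay above and 11 below all controls (4.839% and 8.871%), with a median of 0.00 in heterozygous and -0.68 in homozygous cortex. At the other end, of 3175 genes under 10 kb, 86 lay above and 428 below (2.709% and 13.48%). The shares over all genes were 3.48% above and 7.56% below. Genes under 10 kb had a median of -0.04 in heterozygous and 0.00 in homozygous cortex.

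**Figure D4:**
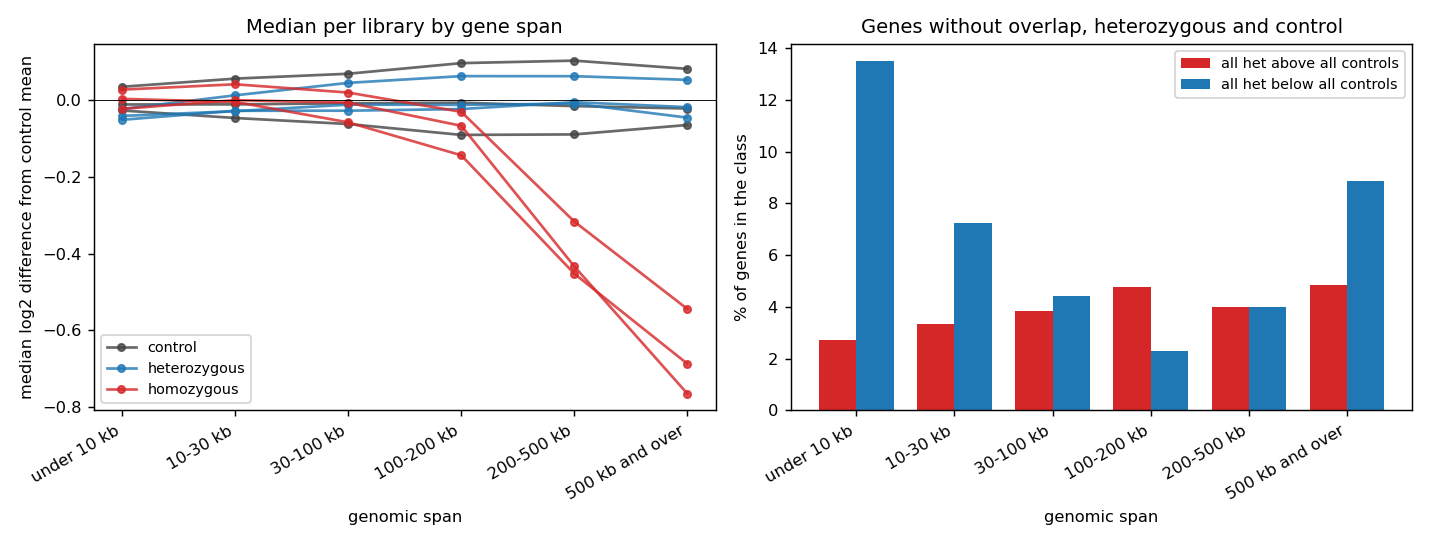
Left, median log2 difference from the control mean (y axis) in 6 classes of genomic span (x axis), with 1 line per library; right, the percentage of genes in each class whose 3 heterozygous libraries lie all above or all below the 3 controls. Homozygous libraries all lie below the controls from 200 kb upward, while heterozygous libraries stay among the controls from 10 kb upward. Under 10 kb, heterozygous libraries 1 and 2, at -0.0503 and -0.0403, lie below the lowest control, at -0.0261. The share of lower genes is 13.48% under 10 kb, beside 7.56% of all genes.

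Genes that were lowest in homozygous cortex relative to control mostly overlapped control with 1 copy. Dcc, the netrin receptor of guided axons, was at 9.58, 10.5 and 10.3 RPKM in control, 8.29, 9.01 and 11.1 RPKM in heterozygous and 1.42, 1.56 and 1.35 RPKM in homozygous libraries. Ctnna2, a neuronal catenin that links cadherins to actin, was at 28.3, 28.2 and 30.5 RPKM in control, 33.3, 26.7 and 27.4 RPKM in heterozygous and 4.79, 5.02 and 6.61 RPKM in homozygous libraries. Npas3, a neuronal transcription factor, was at 3.50, 3.54 and 3.86 RPKM in control, 3.59, 3.32 and 3.59 RPKM in heterozygous and 0.376, 0.356 and 0.366 RPKM in homozygous libraries. In all 3 genes the heterozygous libraries overlapped the controls. The heterozygous intervals were -0.32 to 0.12 for Dcc, -0.18 to 0.19 for Ctnna2 and -0.22 to 0.13 for Npas3, beside homozygous differences of -2.45, -2.32 and -2.25.

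Mpped2, Ankrd6, Aim2, Tmem132b, Frmd5 and the homeobox gene Meis2 likewise overlapped control in heterozygous cortex, with differences of -0.12, -0.04, -0.11, -0.04, -0.15 and 0.09 in that order. Some genes that were much higher in homozygous cortex overlapped or lay below control with 1 copy, unlike Rprl3, described above. Crabp2, which binds retinoic acid, was at 40.3, 39.8 and 32.8 RPKM in control, 29.5, 30.9 and 32.4 RPKM in heterozygous and 182, 153 and 160 RPKM in homozygous libraries. Its heterozygous libraries lay below the controls, the highest of them close to the lowest control. Calb1, a calcium-binding protein, and Upp1, uridine phosphorylase, overlapped control, with heterozygous differences of 0.12 and -0.08 beside homozygous ones of 2.04 and 2.07.

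Some long transcripts were intermediate. E130307A14Rik, a non-coding RNA gene of 110.6 kb on chromosome 10, was at 4.57, 4.53 and 5.05 RPKM in control, 3.03, 2.99 and 2.78 RPKM in heterozygous and 0.386, 0.711 and 0.521 RPKM in homozygous libraries. Kcnip1, a subunit that modulates Kv4 potassium channels, with a span of 214.1 kb on chromosome 11, was at 3.10, 3.63 and 4.04 RPKM in control, 1.94, 2.14 and 2.09 RPKM in heterozygous and 0.417, 0.228 and 0.501 RPKM in homozygous libraries. For both genes the 3 groups did not overlap. The heterozygous differences were -0.60 (SE 0.08) and -0.67 (SE 0.10), at 62.1% and 57.3% of control. Limma's adjusted p was 0.128 for each, 0.0491 for each with median scaling, and 0.0339 for Kcnip1 without control replicate 1. Against the male control alone the differences were -0.70 and -0.83.

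The same order of levels was seen for other genes that lay below control without overlap. Nkain2, which interacts with the sodium pump and spans 1201 kb, was at 2.08, 1.79 and 1.96 RPKM in control, 1.27, 1.42 and 1.16 RPKM in heterozygous and 0.232, 0.160 and 0.263 RPKM in homozygous libraries. Lsamp, a cell adhesion protein of the limbic system spanning 613.4 kb, was at 2.53, 2.41 and 2.32 RPKM in control, 1.75, 1.76 and 1.82 RPKM in heterozygous and 0.413, 0.238 and 0.559 RPKM in homozygous libraries. Mir9-3hg, the host gene of a neural microRNA, was at 6.09, 5.52 and 6.45 RPKM in control, 4.51, 3.91 and 4.33 RPKM in heterozygous and 1.68, 1.70 and 1.63 RPKM in homozygous libraries. These 3 were singled out after their values were seen, and their heterozygous differences were -0.45, -0.36 and -0.46, with limma adjusted p-values of 0.356, 0.417 and 0.286.

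In the list of very long neuronal genes, drawn up with the homozygous results known, 64 were tested. Of these, 1 lay above and 5 below all controls (1.56% and 7.81%, beside 3.48% and 7.56% of all genes). Together 9.38% were without overlap, beside 11% of all genes, so the list was near the share of all genes. The median of the list was 0.00 in heterozygous and -1.07 in homozygous cortex, and 57 members were bounded within 0.5. The 5 lower members were Kcnip1, Nkain2, Lsamp, Cntn4 and Msi2, and the higher one was the synaptic scaffold Dlg2, at 0.12. The count above all controls was 14 without control replicate 3 (22.2%, beside 15.5% of all genes) and 4 without heterozygous replicate 3 (6.25%, beside 5.53%). The count below was 12 without heterozygous replicate 3 (18.8%, beside 15%) and 8 without heterozygous replicate 1 (12.5%, beside 12.3%).

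More genes of ion channels and neurotransmitter receptors lay above control than below. Of 25 tested, 6 lay above all controls and 1 below, 28% without overlap against 11% of all genes, with a median of 0.12 and 23 members bounded within 0.5. Gria2, an AMPA receptor subunit, was at 13.503, 13.96 and 13.518 RPKM in control, 16.6, 15.1 and 14.8 RPKM in heterozygous and 5.42, 5.07 and 7.44 RPKM in homozygous cortex. Cacna2d3, a calcium channel subunit, was at 1.77, 1.70 and 2.05 RPKM in control and 2.11, 2.37 and 2.12 RPKM in heterozygous cortex. Their differences were 0.17 (SE 0.06) and 0.21 (SE 0.09). Grin2b and Cacna1b were also among the higher members, and the lower one was the potassium channel Kcnd2, at -0.25 (SE 0.08). The count above all controls was 14 without control replicate 3 (56%, beside 15.5% of all genes), 10 without heterozygous replicate 1 (41.7%, beside 10%), and 9 without control replicate 1 or without heterozygous replicate 3 (37.5% and 36%, beside 5.72% and 5.53%). None passed limma's adjusted p of 0.05, and the median of the list was 0.05 against the male control alone, beside -0.07 for all transcripts.

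Cell cycle genes that separated from control were all lower. Of 30 tested, 7 lay below all controls (23.3%, beside 7.56% of all genes) and 0 above, with a median of -0.08, and all 30 were bounded within 0.5. Ccnd1, the cyclin of the G1 phase, was at 36.9, 38.5 and 34.4 RPKM in control, 29.1, 28.7 and 33.1 RPKM in heterozygous and 53.9, 49.6 and 51.8 RPKM in homozygous cortex. Cdk1, the kinase of mitotic entry, was at 67.9, 68.7 and 69.6 RPKM in control, 60.2, 60.3 and 63.8 RPKM in heterozygous and 45.0, 48.5 and 40.2 RPKM in homozygous cortex. The mitotic kinase Aurka differed by -0.20 (SE 0.05), Cdk1 by -0.16 (SE 0.05) and Ccnd1 by -0.27 (SE 0.07), while the proliferation marker Mki67 overlapped control at 0.15 (SE 0.12). The count of lower members was 15 without control replicate 1 (50%, beside 17.7% of all genes), 14 without heterozygous replicate 3 (46.7%, beside 15%) and 11 without control replicate 3 (36.7%, beside 10.4%).

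Markers of the cortical cell types stayed mostly within the spread of the controls. In bulk tissue, fewer cells of a type and less RNA per cell cannot be told apart. For the lists from here on, the shares over all genes with all 6 libraries were 3.48% above and 7.56% below all controls, 11% together. Of 21 radial glial markers, 1 lay below all controls and 0 above, and the summed level was 2714 to 3097 RPKM in control and 2718 to 3032 RPKM in heterozygous libraries. The lower one was Emx2, a homeobox gene of dorsal telencephalon, at 9.83, 12.03 and 11.6 RPKM in control and 7.60, 9.44 and 8.69 RPKM in heterozygous cortex, -0.36 (SE 0.10, limma adjusted p of 0.589). Pax6 and Sox2, regulators of cortical progenitors, overlapped control, at -0.04 and -0.11.

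Of 18 intermediate progenitor markers 2 lay below all controls (11.1%, beside 7.56% of all genes), the Notch pathway genes Dll3 and Mfng. The defining transcription factor Eomes overlapped control at 0.09. Of 25 markers of cortical excitatory neurons 2 lay above all controls and 1 below (8% and 4%, beside 3.48% and 7.56% of all genes). Their median was 0.08. Tbr1, a transcription factor of early cortical neurons, was at 5.34, 6.36 and 6.02 RPKM in control and 7.49, 7.27 and 6.56 RPKM in heterozygous cortex, 0.25 (SE 0.08), and the other higher one was Dcx, a microtubule protein of migrating neurons, at 0.17 (SE 0.06). The median of this list was -0.04 against the male control alone, beside -0.07 for all transcripts, and the count above all controls was 13 without control replicate 3 and 8 without heterozygous replicate 3 (52% and 32%, beside 15.5% and 5.53% of all genes).

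GABAergic neuron markers varied between libraries. Only 5 of the 15 tested were bounded within 0.5, and their summed level was 34.1 to 54.6 RPKM in control and 34.6 to 38.5 RPKM in heterozygous libraries. The neuropeptides Sst and Npy lay above all controls (13.3% of the list, beside 3.48% of all genes). Below all controls lay 1 member (6.67%, beside 7.56%). Sst was at 2.11, 1.70 and 2.18 RPKM in control, 4.52, 4.54 and 2.44 RPKM in heterozygous and 0.265, 0.329 and 1.25 RPKM in homozygous libraries, 0.76 (SE 0.19) for heterozygous. Npy was at 0.592, 0.561 and 0.661 RPKM in control and 1.63, 1.12 and 0.926 RPKM in heterozygous libraries, 0.62 (SE 0.14). Gad1, the enzyme that makes GABA, overlapped control at 0.05. Control library 1, which was high for Lhx8, also had the highest control value of Gad1, at 1.15 RPKM against 0.706 and 0.507.

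Other cell types in or around the cortex gave few separations. None of 11 Cajal-Retzius markers, 8 markers of diencephalon and cortical hem, 6 of pericytes, 7 of choroid plexus and 3 of the oligodendrocyte lineage lay outside the controls. For 12 microglial and macrophage, 17 endothelial and 16 meningeal and fibroblast markers, 1 gene each did. Ttr, the main choroid plexus transcript, was at 371, 400 and 587 RPKM in control and 366, 488 and 521 RPKM in heterozygous libraries, with an interval of -0.35 to 0.42. All 12 erythroid genes had a lower mean in heterozygous cortex, with a median of -0.22, but 1 of 12 lay below all controls and only 1 was bounded within 0.5. Their summed level was 3973 to 4723 RPKM in control and 3143 to 4820 RPKM in heterozygous libraries, so blood RNA overlapped between the groups. Without heterozygous replicate 2 all 12 lay below the controls, as 9.74% of all transcripts did.

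Genes of RNA processing and stress gave few separations. None of 31 transcription elongation factors lay outside the controls and 30 were bounded within 0.5. Of 31 splicing factors 1 lay below, Ptbp2, a neuronal repressor of splicing, at -0.10. Without control replicate 1, 7 lay below, beside 17% of all transcripts. Without heterozygous replicate 1, 6 lay above, beside 10.3% of all transcripts. Srsf4 was at 23.7, 27.1 and 28.0 RPKM in control, 24.8, 19.1 and 20.1 RPKM in heterozygous and 5.30, 5.99 and 6.73 RPKM in homozygous cortex, so heterozygous library 1 lay within the controls. Of 23 targets of p53 1 lay above, Ddit4, and Cdkn1a, the arrest gene of that pathway, was at 0.532, 0.564 and 0.567 RPKM in control and 0.391, 0.537 and 0.434 RPKM in heterozygous cortex, -0.15 (SE 0.09).

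For the lists that follow, the shares over all genes were 3.48% above and 7.56% below all controls, 11% together. Of 45 respiratory chain genes 6 lay below and 1 above, 15.6% together. The smallest p was that of Ndufv1, a subunit of complex I. It was at 86.4, 83.7 and 85.6 RPKM in control and 74.6, 73.4 and 70.8 RPKM in heterozygous cortex, -0.22 (SE 0.05, limma adjusted p of 0.405). Of 26 genes of hypoxia and glycolysis 4 lay below and 1 above, and of 17 genes of the integrated stress response 2 lay below. Of 11 immediate early genes 2 lay below, among them Jund, an AP-1 transcription factor, at 19.4, 20.4 and 20.1 RPKM in control and 15.9, 14.6 and 14.5 RPKM in heterozygous cortex, -0.40 (SE 0.06, limma adjusted p of 0.128). Of 50 axon guidance genes 3 lay above and 0 below, with the smallest p for Dpysl3, which acts in growth cones, at 53.1, 50.8 and 55.1 RPKM in control and 64.3, 58.6 and 62.4 RPKM in heterozygous cortex, 0.22 (SE 0.06). The axon guidance count above all controls was 18 without control replicate 3 (36%, beside 15.5% of all genes), and 6 lay below without heterozygous replicate 3 (12%, beside 15%). Of 9 circadian clock genes 2 lay above (22.2%), Nfil3 and Cry1.

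**Figure D5:**
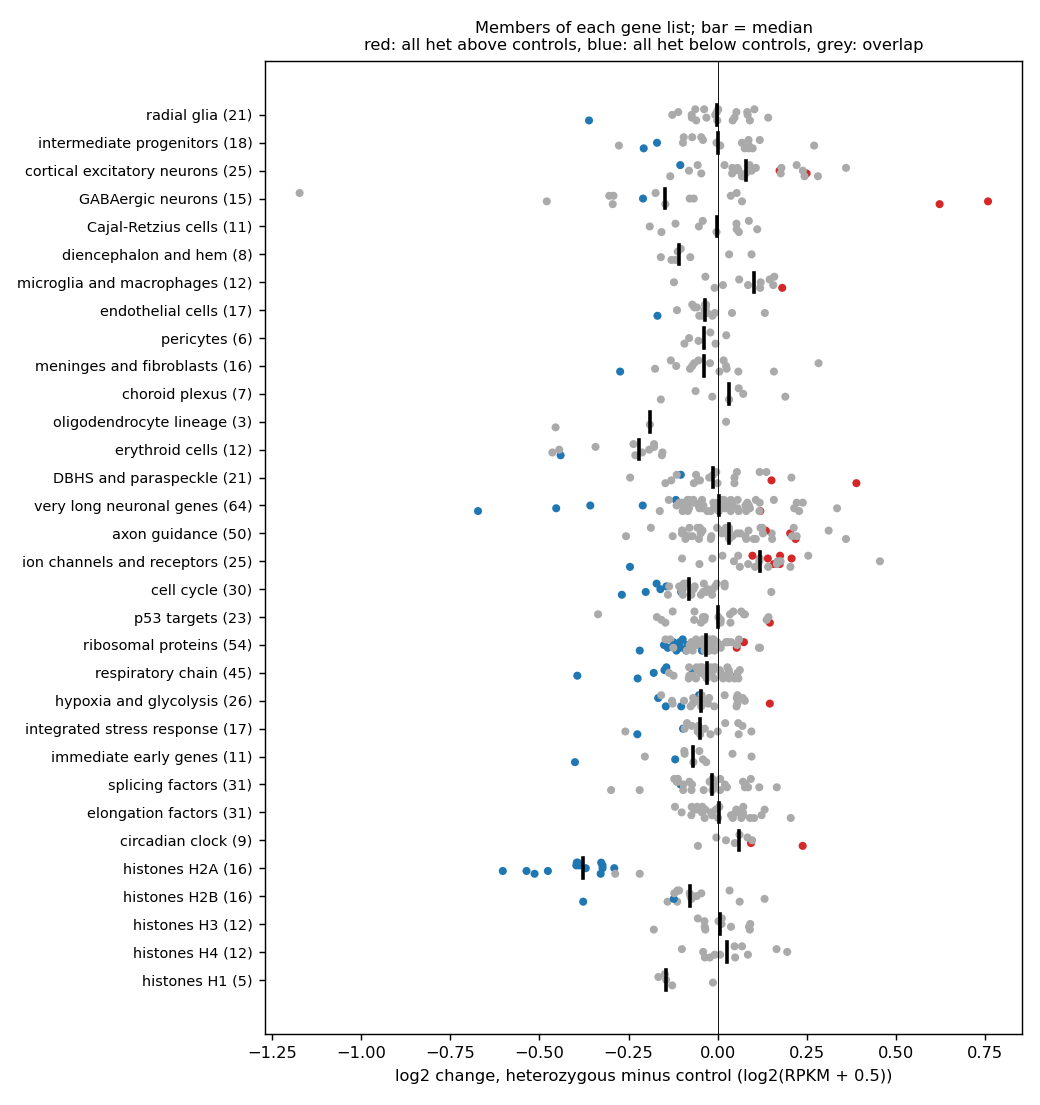
Log2 difference, heterozygous minus control (x axis), of every tested member of each gene list and histone class (y axis, number tested in brackets); red points lie above all controls, blue below all controls, grey overlap, and black bars are medians. The H2A class lies wholly to the left of 0, ion channels lean to the right, and most other lists straddle 0.

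On the X chromosome, 19 of 442 tested genes lay above and 25 below all controls (9.95% together), and 2 of 4 tested Y-linked genes lay above. Genotype and sex are only in part separable for the genes that differ between the sexes, as only 1 control embryo was male. The Y-linked Eif2s3y was at 0, 0 and 8.67 RPKM in control and 11.1, 10.9 and 10.9 RPKM in heterozygous libraries. The X-linked Ddx3x, which encodes an RNA helicase, was at 185, 198 and 192 RPKM in control and 181, 157 and 150 RPKM in heterozygous libraries. Against the male control alone, Eif2s3y differed by 0.325 and Ddx3x by -0.242. Lage3, a subunit of the KEOPS complex of tRNA modification, was at 20.1, 20.1 and 20.7 RPKM in control, 15.2, 15.8 and 16.9 RPKM in heterozygous and 16.9, 16.6 and 17.0 RPKM in homozygous libraries, -0.34 (SE 0.06). In Lage3 the male control library was as high as the female ones.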

How the data were processed

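RNA from cerebral cortex of control, heterozygous and homozygous embryos was depleted of ribosomal RNA and sequenced from strand-keeping libraries, per the labels' protocols. CASAVA 1.8.2, TopHat 1.4.1 and mm9 are named in the submitters' processing notes. The authors deposited RPKM values per RefSeq transcript, 1 table per library, per the file headers. The sources used here do not name the program, the annotation, the use of strand or the treatment of multi-mapping reads, so values of near-copies and overlapping genes are uncertain. Names came from a RefSeq table (30507) and GENCODE M21 (178), and 293 transcripts had no name.

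The 6 libraries were fitted with limma 3.58.1 in R 4.3.3 (trend on) on log2(RPKM + 0.5), with Benjamini-Hochberg adjustment over 17655 transcripts. No overlap means that all 3 heterozygous RPKM values lie above, or all below, the 3 controls. Per gene, 1 transcript was kept, coding first, then by span. The design text counts embryos, and p-values measure the spread between these samples. Depth came from low values, of which 69.7% to 72.6% lay within 0.1 of a whole read, too few to recover counts. The fit was tested on simulated data.

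Members and lists were chosen with earlier results of these data known. Named genes were Sfpq, Nono, Pspc1, called transcripts, up to 12 genes each with the largest non-overlapping rise and fall (at least 1 RPKM, unadjusted p below 0.05), the first and up to 4 top members of each list, 12 steepest homozygous falls and 6 rises, and 12 tightly bounded genes of at least 20 RPKM. Other pseudocounts, filters, scalings, a sex term, a replicate block and leaving out each library were tried.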

Additional observations from a re-analysis of the deposited data

How the results depend on the processing

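Over 16 alternatives for 185 named genes, 104 of 2919 values, from 41 genes, had the other sign than the reported one, 22 of them from 13 genes whose reported difference was at least 0.1. A sex term and the male control alone gave 22 each, leaving out 1 library 52 and scaling 8. The sex term and the male control alone give the same difference for a gene, so their 22 values are the same result. Other filters, the replicate block and the fit of all 9 libraries leave the difference unchanged, so they cannot change its sign. Among them Eomes was at -0.23 to -0.05, Meis2 at -0.08, Mki67 at -0.01, Gad1 at -0.11 to -0.04, Ttr at -0.37 to -0.02, Pax6 at 0.06, Ankrd6 at 0.01 to 0.08, Tmem132b at 0.01 to 0.04, Nono at 0.04 to 0.07 and Ctnna2 at -0.10 to -0.02, so these genes have no settled direction. Of genes with an unadjusted limma p below 0.05, 3 values changed sign. Sstr2 was at -0.0164 with a sex term and against the male control alone, which are the same estimate. Rps14 was at 0.0068 with quantile normalization. The cause was not tested. The number of called transcripts was 0 with no filter, 4 with median scaling, 0 with all 9 libraries fitted, 0 with a sex term, 0 against the male control alone, and 0 to 11 when 1 library was left out. Rps3a1 kept a log2 difference of -0.69 to -0.58, with a limma adjusted p of 0.115 with no filter, 0.482 with 9 libraries, 0.0744 with a sex term and 0.0583 against the male control.

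Transcripts above all controls numbered 1040 with quantile normalization, 1984 against the male control, 421 with 1 transcript per gene, where fewer are tested, and 869 to 2898 with 1 library left out. Those below numbered 7954 against the male control, a construction with 1 control value, and 1695 to 2995 with 1 library left out. Median scaling took the H2A genes below all controls from 14 to 8, a count added, like the list counts under other settings, after the data were seen. Sfpq stayed between -0.37 and -0.18.

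The replicate numbers did not pair the samples: deviations of same-numbered libraries correlated at -0.0443, -0.00587 and -0.0188. With the replicate block, 0 transcripts were called, the adjusted p of Rps3a1 was 0.290, and long minus short genes differed by 0.0251 with an exact permutation p of 0.25.

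RPKM without counts gives no counting error per gene, 3 libraries a group cannot reach an exact p below 0.1, and sex is only in part separable from genotype.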
